A study of Mus musculus with 6 samples.

Results

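The 48 genes described here encode chromatin regulators, mostly proteins that write, read or erase histone marks or that move nucleosomes. They were chosen by gene symbol and family. The rule uses no measured value, but earlier results of these data were known when it was set. The genes comprise 10 classed as histone lysine methyltransferases, 9 acetyltransferases, 4 subunits of Polycomb repressive complex PRC2 and 12 demethylases. The others are 9 subunits of the SWI/SNF (BAF) nucleosome remodelling complexes, 3 deacetylases and the cohesin loader *Nipbl*. All 48 were in the table of 14647 genes, and all 48 passed the filter on low values, a mean of at least 0.5 RPKM, that left 13547 genes to test. RNA was sequenced from the dissected pharyngeal region of mouse embryos at E9.5, when the arches hold endoderm, ectoderm, mesoderm, neural crest cells and the arch arteries. The 3 libraries of the mutant group came from *Pax9*-/- embryos, which lack this paired-box transcription factor in every cell. The other 3 libraries came from wild-type embryos of the same age, and both groups were on a C57Bl/6J background. *Pax9* is a gene of the pharyngeal endoderm in this region, whereas the tissue sequenced held all its cell types, so that a level is an average over them.

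Histone acetyltransferases and the methyltransferases of histone H3 lysine 4 mark active enhancers and promoters, PRC2 methylates H3 lysine 27 at silent developmental genes, and demethylases and deacetylases remove such marks. SWI/SNF complexes use the ATPase *Smarca4* (BRG1) or *Smarca2* (BRM) to slide or evict nucleosomes. The human counterparts of many of these genes are dosage-sensitive. Mutations in them cause syndromes with congenital heart defects, among them Kabuki syndrome (*KMT2D*, *KDM6A*), Rubinstein-Taybi syndrome (*CREBBP*, *EP300*), Coffin-Siris syndrome (*ARID1B* and other SWI/SNF genes), Sotos syndrome (*NSD1*), Weaver syndrome (*EZH2*) and Cornelia de Lange syndrome (*NIPBL*), and 17 of the 48 genes were marked as genes of this kind.

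The libraries were similar in depth, with between 11675753 and 11881934 reads on the genes of the table in the mutants and between 12116083 and 12704813 in the wild types. *Pax9* itself was at −0.43, −0.63 and −0.59 log2 RPKM in the *Pax9*-null libraries and at 0.63, 0.71 and 0.96 in wild-type, a log2 fold change of −1.32 (limma, adjusted *P*=0.0155), lower in every mutant library than in any wild-type library, with some transcript still counted in the mutants. Some libraries stood apart in markers of other tissues. In wild-type replicate 3 the summed level of 10 cardiomyocyte markers was 39.0 RPKM against 776 to 963 in the other 5 libraries, and that of 4 smooth muscle markers (of 5 named) was 52.1 against 218 to 291. Summed erythroid markers (10 of 11 in the table) were 4912, 2646 and 4473 RPKM in *Pax9*-null replicates 1 to 3. They were 2408 to 2506 in the wild-type libraries, without overlap, and *Pax9*-null replicate 2 lay near these. The summed level of 9 neural crest markers (of 9 named) was also higher without overlap, at 80.8 to 85.3 against 74.5 to 79.6, although their median log2 fold change was −0.18, with 2 called lower and 1 called higher by limma. Endothelial (8 of 8; 58.9 to 72.0 against 67.0 to 109), neural (10 of 10; 74.0 to 99.6 against 93.6 to 183) and pharyngeal endoderm markers (8 of 11; 221 to 277 against 191 to 243) overlapped between genotypes. The part of these differences in the values of the chromatin genes was not tested.

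Chromatin regulators were called lower more often than higher in *Pax9*-null embryos. When limma was run across all genes, 16 of the 48 (33.3%) were called lower at an adjusted *P* of at most 0.1, where 12.0% of all tested genes were, and 2 were called higher, where 14.7% of all tested genes were. The other 30 were not called. The 16 were the H3K4 methyltransferases *Kmt2a*, *Kmt2b*, *Kmt2d* and *Setd1a*, the acetyltransferases *Kat2a*, *Kat6a* and *Crebbp*, the demethylases *Kdm2b*, *Kdm3b*, *Kdm4a* and *Kdm4b*, and the SWI/SNF subunits *Smarca4*, *Smarcc1*, *Smarcc2*, *Smarcb1* and *Arid1b*. The 2 called higher were *Suz12* and *Eed*, both core subunits of PRC2. The median log2 fold change of the 48 genes was −0.29, against −0.00 for all tested genes, and 39 of the 48 lay below 0. In bulk tissue, fewer cells that express a gene and less of its RNA per cell cannot be told apart.

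**Figure D1:**
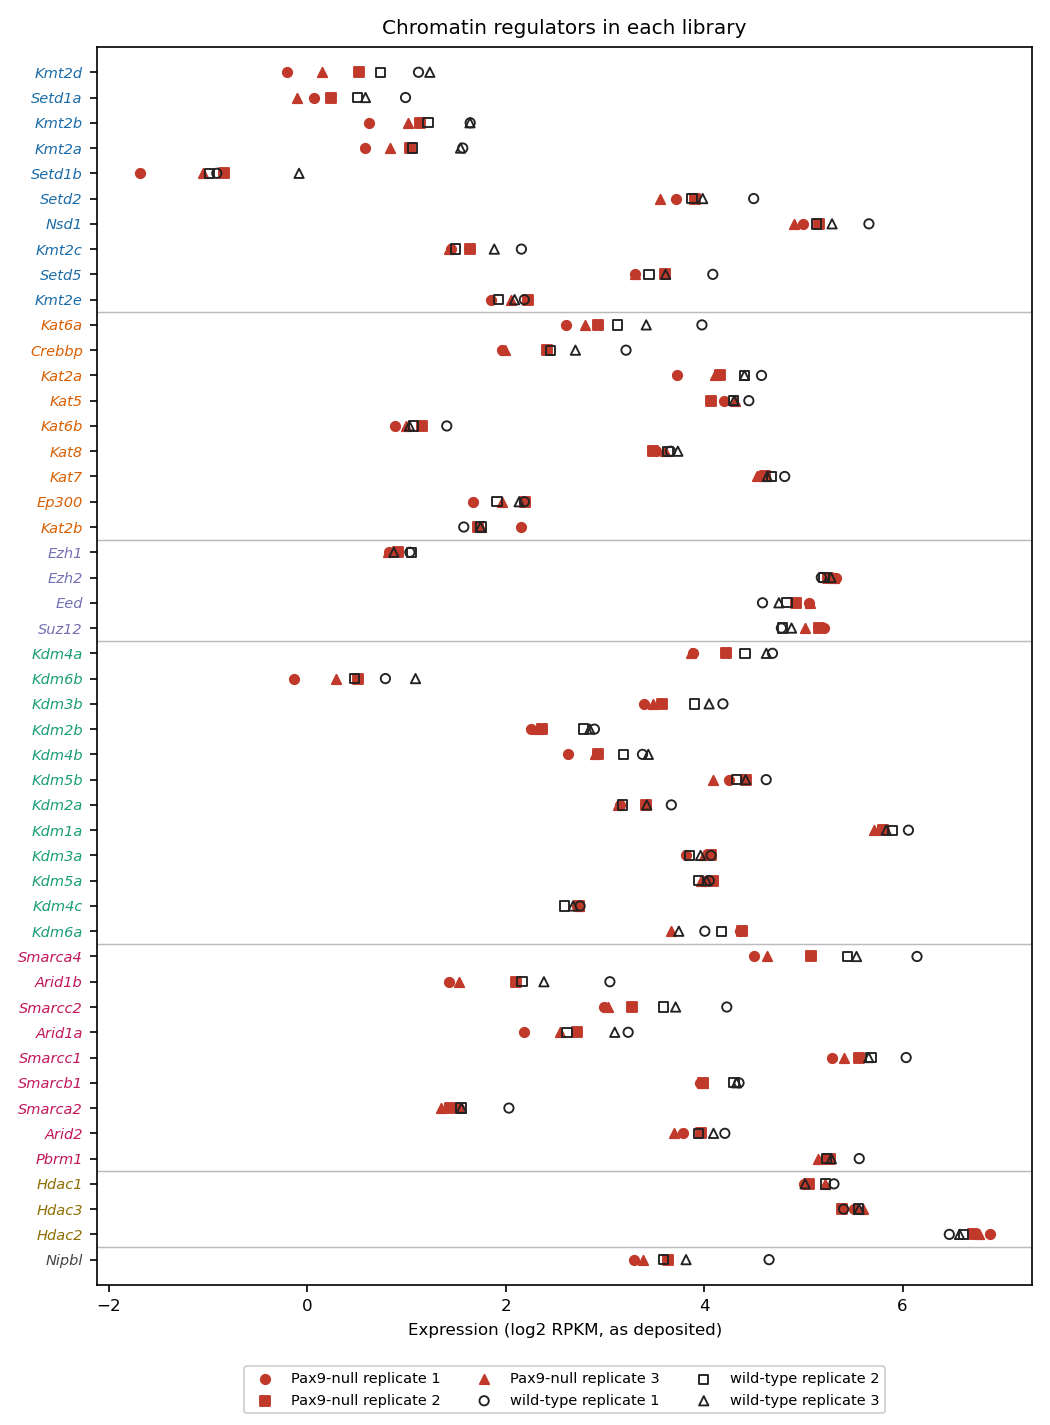
Expression of the 48 chromatin regulators (log2 RPKM as deposited, horizontal axis) in each of the 3 *Pax9*-null (red, filled) and 3 wild-type (black, open) libraries, grouped by class. For 20 genes all red symbols lie left of all black ones and for 3 genes right of them, and wild-type replicate 1 (open circles) is often the rightmost symbol.

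In 20 of the 48 genes all 3 *Pax9*-null libraries lay below all 3 wild-type libraries, an ordering found in 20.1% of all tested genes, and in 3 (*Suz12*, *Eed* and *Hdac2*) all lay above, where 21.8% of all tested genes did. An exact permutation test of 3 libraries against 3 cannot give a *P* below 0.1, two-sided, and each of these 23 genes had that value. Single libraries carried much of the difference. Relative to each gene's mean over the 6 libraries, the 48 genes had a median deviation of 0.29 (log2) in wild-type replicate 1, of 0.09 in wild-type replicate 3 and of −0.02 in wild-type replicate 2, which lay close to *Pax9*-null replicate 2 at −0.03. *Pax9*-null replicates 1 and 3 were at −0.20 and −0.19. This pattern was not particular to the members. Tested genes of the 2 longest deciles of gene length had medians of 0.22, −0.02 and 0.06 in wild-type replicates 1 to 3. In *Pax9*-null replicates 1 to 3 those long genes were at −0.09, 0.00 and −0.16. Without wild-type replicate 1, the number of members called lower was 8 and their median −0.17, and without wild-type replicate 3 the number was 10. Lower calls among all tested genes fell as well, from 1621 to 697 without wild-type replicate 1 and to 900 without wild-type replicate 3. No member was called lower or higher without *Pax9*-null replicate 1 or without *Pax9*-null replicate 3, with medians of −0.27 and −0.25. The number called among all tested genes was then 301 and 175, in place of 3611.

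Most of these genes are long, and long genes were lower as a whole. The gene length behind the RPKM values ran from 2008 to 20291 bp with a median of 8192 bp, against 3847 bp for all tested genes, and 30 of the 48 were in the 2 longest deciles of all tested genes. In those 2 deciles, 19.8% of all genes were called lower and 6.05% higher, and the median log2 fold change was −0.17. Of the 30 members there, 10 were called lower and none higher. In the longest decile 7 of 21 members were called lower, where 20.8% of its genes were lower and 5.24% higher. All mutant libraries lay below all wild-type libraries in 11 of the 30 members, where 31.1% of the genes of those 2 deciles did (32.0% in the longest). Had each of the 48 genes been called lower at the rate of its own decile of length, 8.80 calls would have been made in place of 16, and 33 of the 48 had a more negative fold change than the median of their decile. Rates taken within both the same decile of length and the same quintile of GC content gave 10.3 in place of 16, with 33 of the 48 below the median of these genes and a median difference from it of −0.08. These are counts, with no test.

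**Figure D2:**
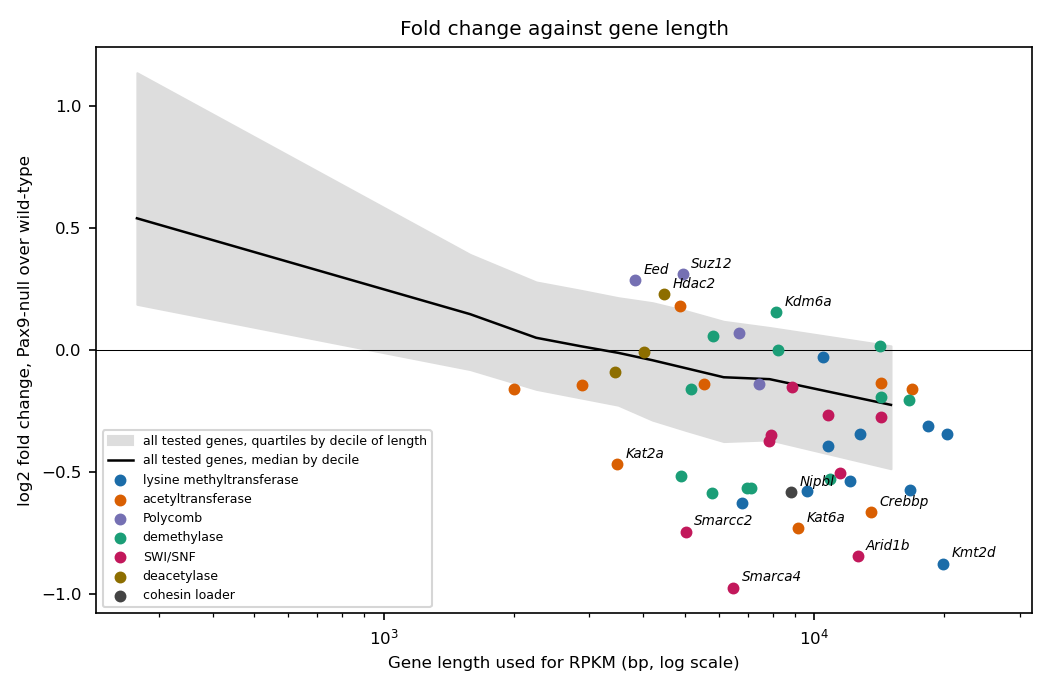
Log2 fold change of the 48 chromatin regulators (coloured points, by class) against the gene length used for RPKM (log scale). The black line and grey band are the median and quartiles of all tested genes in each decile of length, with the median at −0.22 in the longest decile, and *Smarca4*, *Smarcc2*, *Kat6a* and *Arid1b* are among the points under the band.

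Among the members, GC content moved with the fold change more closely than length did. Over the 48 genes, which share libraries and are not replicates, fold change and GC content of the exons had a Spearman's rho of −0.66, and fold change and length one of −0.30. Over 13523 tested genes rho was nearly equal, at −0.44 for GC content and −0.41 for length. Pearson's r over those genes was −0.34 for GC content and −0.51 for length. Of the 24 members with the higher GC content (49.1% to 59.1%), 14 were called lower and none higher, with a median log2 fold change of −0.53, whereas of the 24 with the lower GC content (40.8% to 49.0%) 2 were called lower and 2 higher, with a median of −0.15. Among all tested genes, 12.0% were called lower and 14.7% higher, and rates by GC content alone were not taken. Fold change fell with GC content over all tested genes too, so the direction of this split is not particular to the members. When the dependence on length alone was removed by loess, library by library, 12 members were called lower and 4 higher. Of all tested genes, 1786 were called lower and 1962 higher on that scale. When, library by library, the dependence on length and on GC content was removed by loess, the median of the 48 genes was −0.04 and 30 lay below 0. Only *Kdm3b* was then called lower, where 2.32% of all tested genes were, and none was called higher, where 1.68% were. On this scale all 3 *Pax9*-null libraries lay below all 3 wild-type libraries in 14 of the 48 genes, where 16.5% of all tested genes did, and above them in 2 (*Kdm2a* and *Kdm5a*), where 13.5% did. Of the 14, 9 were among the 20 genes with this order as deposited (*Kat2a*, *Kat6a*, *Kat8*, *Kdm1a*, *Kdm3b*, *Kdm4a*, *Smarca4*, *Smarcc1* and *Smarcc2*), and 5 overlapped as deposited (*Setd2*, *Nsd1*, *Arid2*, *Pbrm1* and *Nipbl*). The other 11 of the 20, and *Suz12*, *Eed* and *Hdac2*, overlapped once the trends were removed. How much of the removed trends belongs to the genotype was not tested, so differences are given below as deposited and, for every called member, also after removal of the trends.

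**Figure D3:**
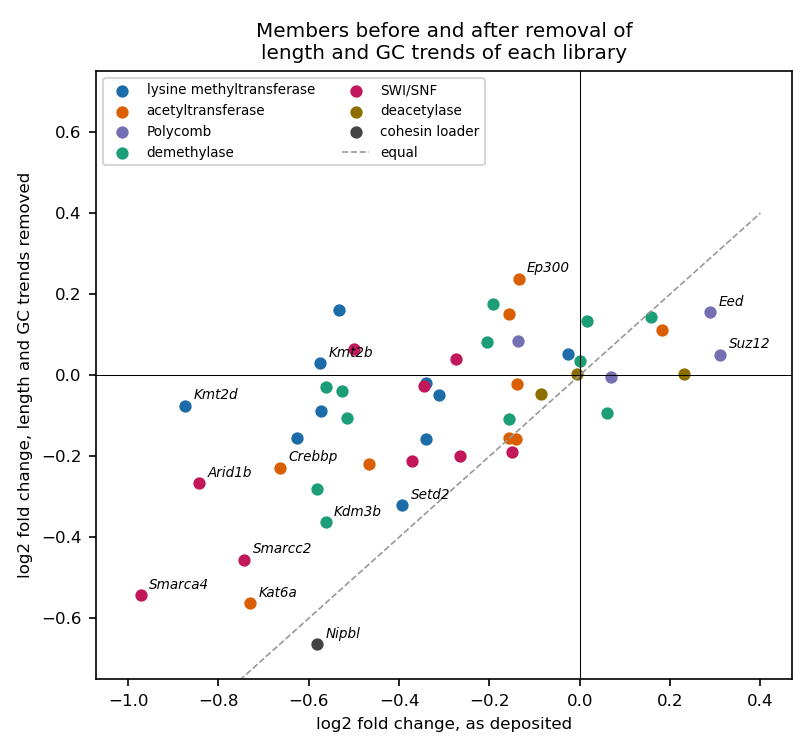
Log2 fold change of each of the 48 chromatin regulators as deposited (horizontal axis) and after removal of each library's trends with gene length and GC content (vertical axis). The dashed line marks equal values, *Kmt2d* moves from −0.87 to −0.08, and *Nipbl*, *Kat6a*, *Smarca4* and *Smarcc2* are the most negative on the vertical axis.

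Promoter sequences were read for all members that had one, whatever their call, since CG-rich promoters with GC boxes are usual for broadly used genes. Of the 48 members, 34 had an entry in the RefSeq promoter table (GRCm38.p6), of which the 250 bases before the start were searched on both strands for the GC box GGGCGG, which binds Sp1-family factors, for CCAAT (bound by NF-Y) and for TATAAA. A GC box was in 58.8% of the 34 windows against 32.7% of 27025 promoters, CCAAT in 23.5% against 34.2%, and TATAAA in 0 of 34 against 12.9%. The median number of CG dinucleotides was 24.5 against 5. The 27025 promoters include genes that were not tested here, whereas all 34 members passed the filter on low values. Shares over tested genes alone were not taken. A GC box was present in 8 of the 12 windows of members called lower, in 1 of the 2 of members called higher and in 11 of the 20 of members not called. The windows shown, of 3 members called lower and 1 called higher, overlap no annotated exon. GC boxes and CCAAT are in capitals on either strand, and each sequence runs 5′ to 3′ towards its gene: *Smarca4* (chr9:21615919-21616168, plus strand, 3 GC boxes), *Kmt2d* (chr15:98871206-98871455, minus strand, 4), *Smarcc2* (chr10:128458986-128459235, plus strand, 0) and *Suz12* (chr11:79992856-79993105, plus strand, 3 and 1 CCAAT).
Smarca4: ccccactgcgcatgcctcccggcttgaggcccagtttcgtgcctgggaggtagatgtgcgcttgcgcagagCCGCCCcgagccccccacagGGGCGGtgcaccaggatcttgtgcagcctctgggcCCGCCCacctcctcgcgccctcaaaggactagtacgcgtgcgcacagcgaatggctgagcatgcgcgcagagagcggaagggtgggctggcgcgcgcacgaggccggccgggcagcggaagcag
Kmt2d: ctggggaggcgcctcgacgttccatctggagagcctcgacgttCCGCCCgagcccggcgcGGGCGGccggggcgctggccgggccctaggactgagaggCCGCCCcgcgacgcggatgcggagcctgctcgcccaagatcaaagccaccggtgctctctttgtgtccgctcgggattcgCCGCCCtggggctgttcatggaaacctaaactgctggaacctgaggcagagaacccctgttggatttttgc
Smarcc2: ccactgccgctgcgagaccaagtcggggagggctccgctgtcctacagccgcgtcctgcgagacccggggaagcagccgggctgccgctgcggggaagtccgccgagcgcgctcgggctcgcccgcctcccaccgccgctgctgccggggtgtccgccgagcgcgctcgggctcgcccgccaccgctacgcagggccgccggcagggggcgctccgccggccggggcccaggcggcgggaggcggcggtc
Suz12: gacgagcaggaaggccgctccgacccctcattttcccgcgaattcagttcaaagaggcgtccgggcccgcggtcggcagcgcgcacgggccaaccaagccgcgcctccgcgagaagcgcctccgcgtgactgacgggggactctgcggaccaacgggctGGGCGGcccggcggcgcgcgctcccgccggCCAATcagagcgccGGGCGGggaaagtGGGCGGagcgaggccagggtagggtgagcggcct
A match describes these letters only, and GC boxes were present both in windows of genes called lower and in that of *Suz12*.

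Among the SWI/SNF subunits, 5 of 9 were called lower and none higher, and all 9 fold changes lay below 0 as deposited, although *Pbrm1* was at 0.03 after removal of the length trend and *Smarca2* and *Arid1a* were at 0.04 and 0.06 after removal of both trends. The median was −0.37, and genes of their deciles of length would have given 1.77 calls. *Smarca4* (chr9:21616169-21704230, GRCm38), the catalytic ATPase needed for heart and neural crest development, was at 4.51, 5.08 and 4.63 log2 RPKM in *Pax9*-null replicates 1 to 3 and at 6.15, 5.45 and 5.54 in wild-type replicates 1 to 3. The groups did not overlap, and wild-type replicate 1 was highest. Its log2 fold change of −0.97 (SE 0.21; limma, adjusted *P*=0.0414), a level of 51% of wild-type, was the most negative of all 48 genes, and it was −0.54 with the trends removed.

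The scaffold subunits *Smarcc1* (BAF155) and *Smarcc2* (BAF170), which pair at the core of the complex, were called lower with log2 fold changes of −0.37 (SE 0.13; limma, adjusted *P*=0.0835) and −0.74 (SE 0.17; adjusted *P*=0.0436), and were at −0.21 and −0.45 with the trends removed. *Smarcb1* (SNF5), which binds the acidic patch of the nucleosome, was at 3.96, 3.99 and 3.99 in the *Pax9*-null and at 4.35, 4.30 and 4.33 in the wild-type libraries. Its change was small but its libraries were tightly grouped, with a log2 fold change of −0.34 (SE 0.07, adjusted *P*=0.0411) that was −0.03, with overlap, once the trends were removed. *Arid1b*, the DNA-binding subunit that is most often mutated in Coffin-Siris syndrome, was at 1.43, 2.11 and 1.53 against 3.05, 2.16 and 2.39. *Pax9*-null replicate 2 came close to wild-type replicate 2 without overlap, and the log2 fold change was −0.84 (SE 0.27, adjusted *P*=0.0742). With the trends removed it was −0.27, and the groups overlapped.

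Of the SWI/SNF subunits that were not called, *Arid1a*, the alternative to *Arid1b* in canonical BAF, was at 2.18, 2.72 and 2.55 against 3.24, 2.62 and 3.10, and *Pax9*-null replicate 2 exceeded wild-type replicate 2. Its log2 fold change was −0.50 (adjusted *P*=0.121 by limma). *Smarca2*, the alternative ATPase, was at 1.53, 1.44 and 1.35 against 2.03, 1.55 and 1.56, with all mutant libraries lowest and a log2 fold change of −0.27 (adjusted *P*=0.291). *Pbrm1*, the bromodomain subunit of the PBAF form, had the smallest change of the class, with 5.22, 5.27 and 5.15 against 5.56, 5.24 and 5.28, overlapping groups and a log2 fold change of −0.15. *Arid2*, the ARID subunit of PBAF, had −0.27 (adjusted *P*=0.133). Without wild-type replicate 1, 3 subunits were called, and without *Pax9*-null replicate 1 or 3 none was.

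All 10 lysine methyltransferases had a fold change below 0 as deposited, with *Kmt2e* at 0.01 after median centring and at 0.02 after quantile normalization, and with *Kmt2b*, *Kmt2e* and *Setd1b* above 0 once both trends were removed. Of the 10, 4 were called lower and none higher, with a median of −0.46, and the rate of their deciles of length would have given 2.06 calls. *Kmt2d* (MLL4; chr15:98831669-98871204), which monomethylates H3K4 at enhancers and underlies most Kabuki syndrome, was at −0.20, 0.53 and 0.15 log2 RPKM in the *Pax9*-null and at 1.12, 0.74 and 1.24 in the wild-type libraries, without overlap. This was a log2 fold change of −0.87 (SE 0.24; limma, adjusted *P*=0.0566). Its exons are 58.3% GC, and the fold change was −0.08 with the trends removed.

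*Kmt2a* (MLL1), known for maintaining *Hox* gene expression, was at 0.58, 1.04 and 0.84 against 1.57, 1.06 and 1.55. *Pax9*-null replicate 2 and wild-type replicate 2 nearly met, and the log2 fold change was −0.57 (SE 0.21; limma, adjusted *P*=0.0949), and −0.09 with the trends removed. Its paralogue *Kmt2b* had −0.58 (SE 0.20, adjusted *P*=0.0911), which turned to 0.03 with the trends removed, and the SET1 complex enzyme *Setd1a* had −0.63 (SE 0.21, adjusted *P*=0.0806), which was −0.15 with the trends removed, with as few as 74 reads in a library. *Setd1b*, the other SET1 enzyme, had the same sign at −0.53, but with 43 to 143 reads and overlapping groups it was not called (adjusted *P*=0.306).

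The H3K36 methyltransferase of Sotos syndrome, *Nsd1*, was at 4.996, 5.16 and 4.90 against 5.66, 5.13 and 5.29. *Pax9*-null replicate 2 lay just above wild-type replicate 2, and the gene was not called, with a log2 fold change of −0.34 (limma, adjusted *P*=0.134). *Setd5*, a gene of intellectual disability with heart defects, was at 3.30, 3.60 and 3.30 against 4.09, 3.45 and 3.61 (log2 fold change −0.31, adjusted *P*=0.242), again with overlap at replicate 2. *Kmt2e*, which has no known methyltransferase activity, moved least, with 1.85, 2.22 and 2.06 against 2.19, 1.93 and 2.09 and a log2 fold change of −0.03. The H3K36 trimethylase *Setd2* (−0.39) and the enhancer enzyme *Kmt2c* (−0.34) were not called. None of the class was called without *Pax9*-null replicate 1 or 3 or without wild-type replicate 1 or 3, and 7 were called without wild-type replicate 2.

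**Figure D4:**
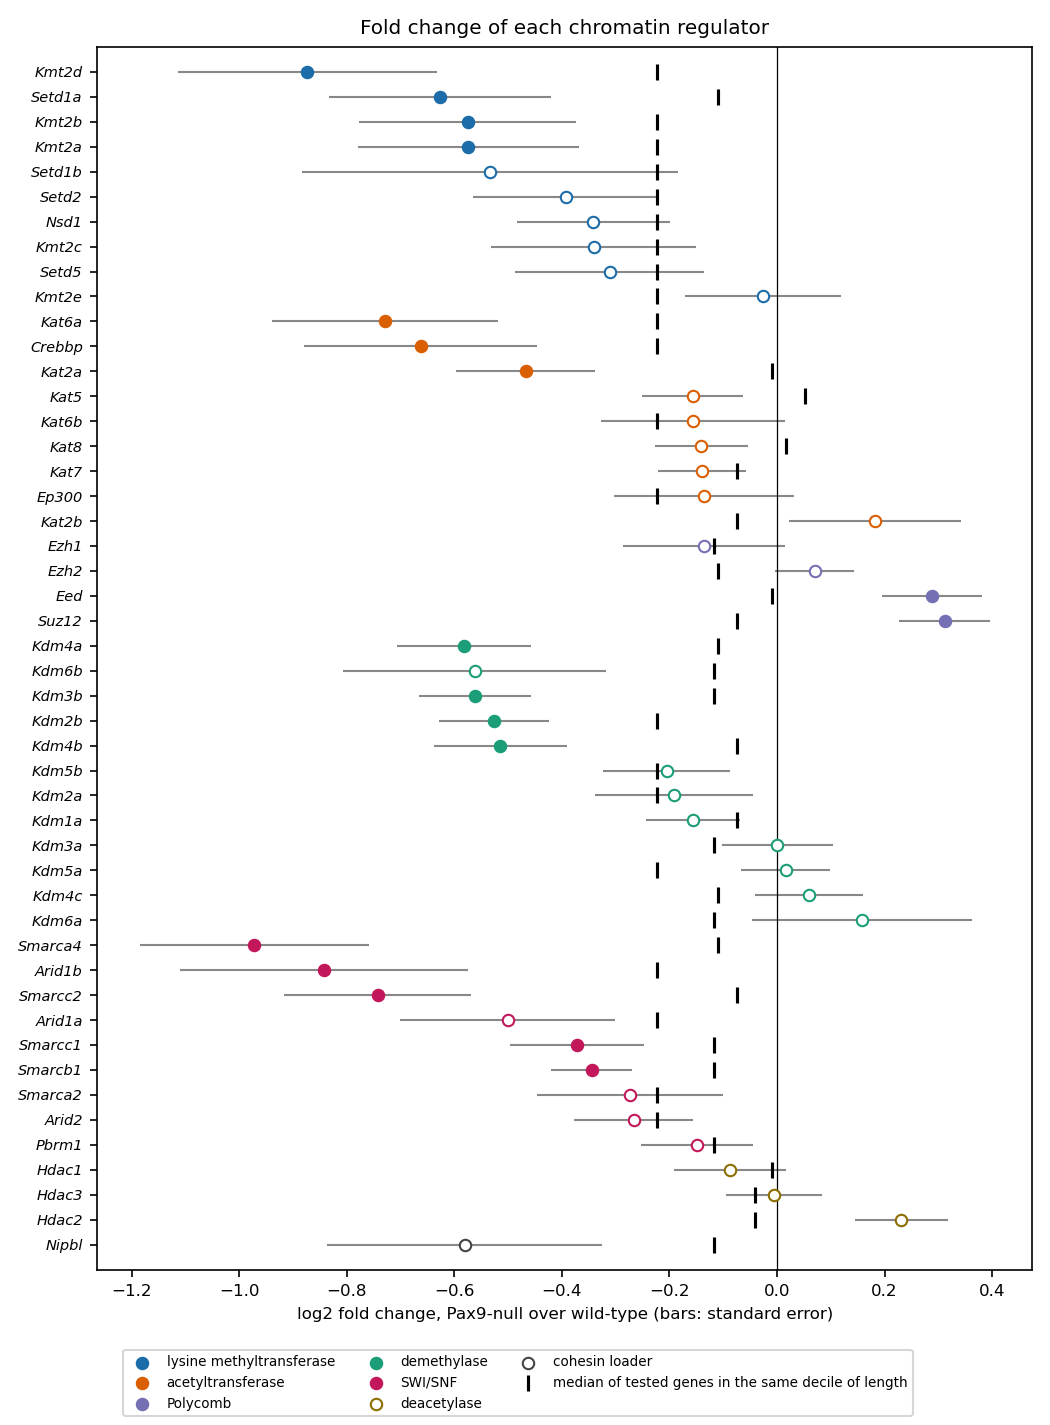
Log2 fold change (*Pax9*-null over wild-type) of each of the 48 chromatin regulators with its standard error (grey bars), coloured by class. Filled points are called at an adjusted *P* of at most 0.1 by limma, open points are not, and the black tick is the median of all tested genes in the same decile of gene length. The SWI/SNF and methyltransferase points lie left of 0, and the called Polycomb points, *Suz12* and *Eed*, lie right of it.

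Of the 9 acetyltransferases, 3 were called lower and none higher, and their deciles of length would have given 1.43 calls. The median was −0.16. *Kat6a* (MOZ; chr8:22859535-22943259), which acetylates histone H3 and acts on *Tbx1* and *Hox* genes in mice, was at 2.60, 2.94 and 2.80 log2 RPKM in the *Pax9*-null libraries and at 3.98, 3.13 and 3.42 in wild-type. The groups did not overlap, and the wild-type libraries spread more widely than the mutants. The log2 fold change was −0.73 (SE 0.21; limma, adjusted *P*=0.0614) and −0.56 with the trends removed. Its paralogue *Kat6b* was at 0.89, 1.16 and 0.999 against 1.41, 1.07 and 1.03, with overlap and a log2 fold change of −0.16 (adjusted *P*=0.542).

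The coactivators *Crebbp* (CBP) and *Ep300* (p300) acetylate H3K27 at enhancers. *Crebbp* was at 1.96, 2.42 and 1.998 against 3.21, 2.45 and 2.70 without overlap, although *Pax9*-null and wild-type replicate 2 nearly met, and its log2 fold change was −0.66 (SE 0.22; limma, adjusted *P*=0.08), and −0.23, with overlap, once the trends were removed. *Ep300* was at 1.67, 2.20 and 1.96 against 2.19, 1.91 and 2.14, with *Pax9*-null replicate 2 the highest library, and its log2 fold change of −0.14 was not called (adjusted *P*=0.592).

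*Kat2a* (GCN5), the acetyltransferase of the SAGA complex, was also called lower, at 3.997 ± 0.24 log2 RPKM in *Pax9*-null and 4.46 ± 0.10 in wild-type libraries (mean ± SD, *n*=3), a log2 fold change of −0.47 (adjusted *P*=0.0571 by limma) that was −0.22 with the trends removed. Its paralogue *Kat2b* (PCAF) had the only positive value of the class, with 2.15, 1.72 and 1.75 against 1.58, 1.75 and 1.75 and a log2 fold change of 0.18. *Pax9*-null replicate 1 alone stood above the other libraries, and the gene was not called. The MYST enzymes *Kat5* (−0.16), *Kat7* (−0.14) and *Kat8* (−0.14) were not called either. Without wild-type replicate 1 a single acetyltransferase was called, and without *Pax9*-null replicate 1 or 3 none was.

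Of the 4 PRC2 genes, 2 were called higher, where 14.7% of all tested genes were, and none lower, with a median of 0.18. The rate of their deciles of length would have given 0.37 calls higher and 0.66 lower. *Suz12* (chr11:79993106-80034123), the scaffold of the complex, was at 5.21, 5.15 and 5.02 log2 RPKM in the *Pax9*-null and at 4.78, 4.79 and 4.88 in the wild-type libraries, without overlap. Its log2 fold change was 0.31 (SE 0.08; limma, adjusted *P*=0.0538), and 0.05 with the trends removed. *Suz12* had the lowest GC content of the 48 genes, 40.8%.

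*Eed* (chr7:89954654-89980983), the subunit that binds trimethylated H3K27, was at 5.05, 4.92 and 5.07 against 4.59, 4.84 and 4.75, without overlap (log2 fold change 0.29, SE 0.09; limma, adjusted *P*=0.0773), and at 0.16 with the trends removed. The catalytic subunit *Ezh2* was at 5.33, 5.25 and 5.30 against 5.18, 5.21 and 5.28, a log2 fold change of 0.07 with overlap. *Ezh1*, its counterpart in cells that no longer divide, was at 0.82, 0.92 and 0.81 against 1.04, 1.05 and 0.87, also with overlap (−0.14). Neither *Suz12* nor *Eed* was called without *Pax9*-null replicate 1 or 3, without wild-type replicate 1 or after quantile normalization, and 1 of them was called without wild-type replicate 3.

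Of the 12 demethylases, 4 were called lower and none higher, with a median of −0.20, and their deciles of length would have given 2.32 calls. The 4 were all JmjC enzymes, as is every member of the class but *Kdm1a*. *Kdm4a*, which demethylates H3K9 and H3K36, had the most negative value, with 3.89, 4.22 and 3.87 log2 RPKM in the *Pax9*-null libraries, 4.69, 4.41 and 4.63 in wild-type and no overlap (log2 fold change −0.58, SE 0.13; limma, adjusted *P*=0.0407; −0.28 with the trends removed). Its paralogues *Kdm4b* and *Kdm4c* had −0.51 (SE 0.12, adjusted *P*=0.0459) and 0.06 (adjusted *P*=0.698, with overlapping groups) as deposited. With the trends removed they were alike in value, at −0.11 and −0.09, both with overlap.

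The H3K36 demethylase *Kdm2b*, which also brings a variant PRC1 to CpG islands, had a log2 fold change of −0.53 (SE 0.10; limma, adjusted *P*=0.0341), from 2.84 ± 0.05 to 2.32 ± 0.06 log2 RPKM (mean ± SD, *n*=3), and was −0.04, with overlap, once the trends were removed. Its paralogue *Kdm2a* was not called (−0.19). The H3K9 demethylase *Kdm3b* was at 3.40, 3.58 and 3.48 against 4.19, 3.91 and 4.05, shown library by library because it alone was called after removal of the trends. Its log2 fold change was −0.56 (SE 0.10, adjusted *P*=0.0306) as deposited and −0.36 with the trends removed (adjusted *P*=0.0713, range over all alternatives 0.0174 to 0.152). *Kdm3a*, by contrast, had the same mean in both genotypes (0.00).

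The 2 demethylases of H3K27 trimethylation had fold changes of opposite sign, and neither was called. *Kdm6b* had a log2 fold change of −0.56 (limma, adjusted *P*=0.145) with 73 to 186 reads, and of −0.03 with the trends removed. *Kdm6a* (UTX), the X-linked gene of Kabuki syndrome, was at 4.36, 4.38 and 3.67 against 4.01, 4.18 and 3.75, a log2 fold change of 0.16 (adjusted *P*=0.611). The lowest library of each genotype was replicate 3. *Kdm6a* is a gene that escapes inactivation of the X chromosome, and *Xist*, the RNA that coats the inactive X, was at −5.55 log2 RPKM in *Pax9*-null replicate 3 and at −6.48 in wild-type replicate 3, against 2.35 to 2.88 in the other 4 libraries. In these 4 libraries *Kdm6a* was higher in both mutants (4.36 and 4.38) than in both wild types (4.01 and 4.18), and in the pair with little *Xist* it was 3.67 against 3.75. The part of *Xist* status in the values of *Kdm6a* was not tested. The enzymes *Kdm1a* (LSD1; −0.16), *Kdm5a* (0.02) and *Kdm5b* (−0.21) were not called. No demethylase was called without *Pax9*-null replicate 1 or 3.

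The 3 deacetylases among the members, all of class I, were not called. *Hdac2* was at 6.88, 6.71 and 6.77 log2 RPKM in the *Pax9*-null libraries and at 6.47, 6.62 and 6.57 in wild-type, higher without overlap, with a log2 fold change of 0.23 (limma, adjusted *P*=0.106) that was 0.00 with the trends removed. It was the most abundant of the 48 genes per length. *Hdac1*, its partner in the Sin3 and NuRD complexes, was at 5.01, 5.06 and 5.22 against 5.31, 5.22 and 5.02, with overlap (−0.09), and *Hdac3* had −0.01.

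*Nipbl*, which loads cohesin on chromatin, was at 3.30, 3.64 and 3.38 log2 RPKM in the *Pax9*-null libraries and at 4.65, 3.59 and 3.82 in wild-type. *Pax9*-null replicate 2 lay above wild-type replicate 2, and wild-type replicate 1 stood above all other libraries. Its log2 fold change of −0.58 (SE 0.26) was not called (limma, adjusted *P*=0.15). It was −0.66 with the trends removed, the most negative of the 48 genes on that scale, and −0.26 without wild-type replicate 1, again on the deposited scale. Among the 17 genes of heart syndromes as a group, 7 were called lower (*Kmt2a*, *Kmt2d*, *Kat6a*, *Crebbp*, *Smarca4*, *Smarcb1* and *Arid1b*) and 1 higher (*Eed*), with a median of −0.34. Their median length was 12600 bp, and the rate of their deciles would have given 3.34 calls lower. With the trends removed, the median was −0.05 and none of the 17 was called.

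Several members are paralogues, and in 10 pairs of paralogues the ratio of both levels was compared within each library, which removes the depth of the library. *Kat6a* exceeded *Kat6b* by 1.72, 1.78 and 1.80 log2 units in the *Pax9*-null and by 2.57, 2.06 and 2.39 in the wild-type libraries. The difference was −0.57 (SE 0.15), and −0.71 with the trends removed, in both cases without overlap. The ratio of *Crebbp* to *Ep300*, genes of like length and GC content, was 0.29, 0.22 and 0.04 against 1.02, 0.54 and 0.57, a difference of −0.53 (SE 0.17) and of −0.47 with the trends removed. The ratio of *Smarca4* to *Smarca2* was 2.98, 3.64 and 3.28 against 4.11, 3.90 and 3.98, a difference of −0.70 (SE 0.20) and of −0.58 with the trends removed. Each of these ratios was lower in all 3 mutants than in all 3 wild types on both scales. The share of all pairs of tested genes with such an order was not taken, so whether these orders are unusual cannot be told. *Smarca4* and *Smarca2* also differ in length (6475 and 14269 bp) and in GC content (56.1% and 47.9%).

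Other ratios changed less or only on the deposited scale. That of *Kmt2d* to *Kmt2c* differed by −0.53 without overlap, but by −0.06 with overlap once the trends were removed, and those of *Smarcc2* to *Smarcc1* (−0.37) and of *Kdm5b* to *Kdm5a* (−0.22) also overlapped once they were removed. The ratios of *Arid1b* to *Arid1a* (−0.34), *Ezh2* to *Ezh1* (0.21), *Hdac2* to *Hdac1* (0.32) and *Kdm6a* to *Kdm6b* (0.72) overlapped as deposited. The exact permutation *P* was 0.1 for the 6 pairs without overlap as deposited, the smallest that 3 against 3 can give, and 0.167 when adjusted over the 10 pairs, so that no ratio passed.

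**Figure D5:**
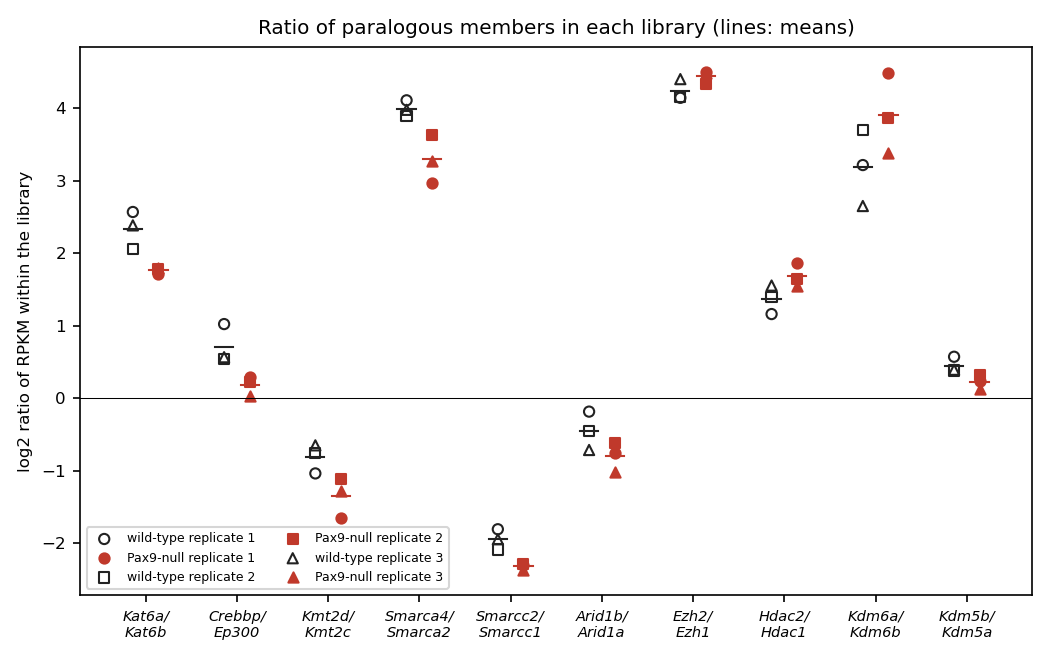
Log2 ratio of the RPKM of 2 paralogous chromatin regulators (vertical axis) within each library, for 10 pairs, with *Pax9*-null libraries in red, wild-type in black and the mean as a line. The groups do not overlap for *Kat6a*/*Kat6b*, *Crebbp*/*Ep300*, *Kmt2d*/*Kmt2c*, *Smarca4*/*Smarca2*, *Smarcc2*/*Smarcc1* and *Kdm5b*/*Kdm5a*.

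The partner subunits and further enzymes of the same complexes, 167 entries in 8 lists chosen by family, were read in the same way. Of the 159 entries tested, 31 (19.5%) were lower and 11 higher by the same limma test, with a median of −0.10, and their deciles of length would have given 24.5 lower and 16.1 higher. In the list of other deacetylases and corepressors 8 of 30 were called lower and 1 higher. The counts were 6 and 1 of 24 for other lysine and arginine methyltransferases, 2 and 1 of 10 for MLL and SET1 core subunits, and 4 and 2 of 25 for acetyltransferases and their subunits. They were 3 and 4 of 26 for other Polycomb subunits, 3 and 0 of 14 for other demethylases, 3 and 0 of 18 for other SWI/SNF subunits, and 2 and 2 of 13 for cohesin and its regulators. In this order, their deciles of length would have given 4.51, 3.88, 1.496, 3.79, 3.71, 2.32, 2.71 and 2.31 lower. Calls higher would have been 3.32, 2.21, 1.25, 2.54, 2.76, 1.23, 1.796 and 1.08. The counts of single lists have no test.

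The most negative called gene of these lists was *Hcfc1*, a chromatin adaptor of the MLL and SET1 complexes, at 3.46, 4.06 and 3.50 log2 RPKM against 5.01, 4.41 and 4.54 and a log2 fold change of −0.98 (SE 0.20; limma, adjusted *P*=0.0387). In the same complexes the small core subunit *Dpy30* was called higher (0.44). The cohesin ring gene *Smc1a* (−0.85), the demethylase *Phf2* (−0.74), the acetyltransferase scaffold *Trrap* (−0.69), the PRC1 subunit *Phc1* (−0.68), the methyltransferase *Prdm2* (−0.65) and the SWI/SNF subunit *Smarcd1* (−0.53) were the most negative called genes of their lists. The most positive were *Sap30* of the Sin3 complex (0.59), the acetyltransferase *Hat1* (0.47), the PRC2 accessory gene *Mtf2* (0.41), the cohesin acetyltransferase *Esco1* (0.34) and the H3K9 methyltransferase *Suv39h2* (0.26). With the trends removed, 2 of the 159 entries were called lower, *Hcfc1* and the SWI/SNF subunit *Brd9*, where 2.32% of all tested genes were. Only 1, *Jmjd6*, was called higher, where 1.68% of all tested genes were. *Brd9* and *Jmjd6* are named after their values were seen.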

How the data were processed

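Total RNA of the pharyngeal region of 3 *Pax9*-/- and 3 wild-type E9.5 embryos was sequenced. The paper describes whole dissected tissue and strand-specific TruSeq libraries, and is followed here, whereas the labels name sorted cells and Smart-seq2. The authors trimmed reads (Trimmomatic 0.32), kept unique, non-redundant reads, sub-sampled all libraries towards the smallest, aligned to GRCm38 (STAR 2.5.1a in the submitters' processing notes, another version in the paper) and counted on Ensembl genes (featureCounts 1.5.1). The deposited values are log2 RPKM, and 82.7% of them gave whole reads (within 0.05 reads) at GENCODE M21 lengths with a prior count of 0.50. Lengths of the other genes were found by search.

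limma 3.58.1 (R 4.3.3; lmFit, eBayes with trend) was run, two-sided, on the deposited values of 13547 genes (those averaging 0.5 RPKM or more), with Benjamini-Hochberg adjustment over all of them and the paper's threshold of 0.1. The paper used voom on counts. Replicates are separate embryos in the paper, and whether they shared litters is not given in the sources used here, so *P* values measure the spread between these libraries. Every member is named, with values in each library for genes of heart syndromes and for the most negative and most positive member of each class, and of each other list the most negative and most positive called gene (1 result under this rule is not reported here). Trends with length and GC were loess fits (span 0.3) per library. Members, lists, tests and alternatives were chosen with earlier results of these data known. Each member has 43 or more reads per library.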

Additional observations from a re-analysis of the deposited data

How the results depend on the processing

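The number of members called lower was 16 and stayed within 1.5 times that number (15 to 18) with pseudocounts of 0.1 and 1, without the filter, after median centring or quantile normalization, and with library or voom weights, and it was 11 of the 34 members with a mean of at least 5 RPKM. It was 13 without the variance trend and 12 with the length trend alone removed. It was 6 with the replicate block, 7 at an adjusted *P* of at most 0.05, 1 with the length and GC trends removed and 0 with these and the replicate block. With one library left out it ran from 0 to 21, and was 0 without *Pax9*-null replicate 1 or 3, 8 without wild-type replicate 1 and 10 when replicate 3 of the wild type was left out. Over all tested genes, 1621 were called lower, 1368 without the variance trend and 1786 with the length trend alone removed. That number was 495 with the block, 502 at 0.05 and 314 with both trends removed. With both trends removed and the block that number was 156, and with one library left out it ran from 22 to 1572. Members called higher (2) ran from 0 to 2 with a library left out. They were 0 after quantile normalization, with the replicate block, with both trends removed (with or without the block) and at 0.05, 1 without the variance trend, and 4 with the length trend removed. The median of the members (−0.29) was −0.093 with the length trend removed and −0.043 with both, with or without the block, and ran from −0.36 to −0.17 with a library left out. The cause of these changes was not tested. Deviations of same-numbered libraries correlated at −0.02, −0.17 and 0.26. These values cannot settle whether the replicate numbers pair the libraries, since shared litters are not known. Calls lost with the block are therefore given without a reading in either direction.

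By class, methyltransferases called lower (4) were 0 at a mean of at least 5 RPKM, with the replicate block, with both trends removed (with or without the block) and at 0.05, 1 with the length trend removed, and 0 to 7 with a library left out. Acetyltransferases (3) were 0 with the block, with both trends removed (with or without the block) and at 0.05, and 0 to 3 with a library left out. Demethylases (4) were 1 with both trends removed, 0 with the block added, and 0 to 4 with a library left out. SWI/SNF subunits (5) were 2 with the block, 3 without the variance trend, 3 with the length trend removed, 3 at 0.05, 0 with both trends removed (with or without the block), and 0 to 6 with a library left out. *Nipbl* was called (1 in place of 0, range 0 to 1) without wild-type replicate 2. PRC2 genes called higher (2) were 0 after quantile normalization, with the block, with both trends removed (with or without the block) and at 0.05, 1 without the variance trend, and 0 to 2 with a library left out. Of the other chromatin genes, 31 lower calls became 9 with the replicate block, 9 at 0.05, 2 with both trends removed, 0 with the block added, and 0 to 26 with a library left out. Their 11 higher calls became 6 after quantile normalization, 2 with the block, 3 at 0.05, 1 with both trends removed, 0 with the block added, and 0 to 12 with a library left out.

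Signs changed for single members, all but *Kmt2b* not called. With both trends removed (the same values with the replicate block) the log2 fold change was 0.030 for *Kmt2b*, 0.052 for *Kmt2e*, 0.16 for *Setd1b*, 0.15 for *Kat6b*, 0.24 for *Ep300*, 0.086 for *Ezh1*, −0.0034 for *Ezh2*, 0.18 for *Kdm2a*, −0.093 for *Kdm4c*, 0.083 for *Kdm5b*, 0.039 for *Smarca2*, 0.065 for *Arid1a* and 0.0037 for *Hdac3*. With the length trend removed it was 0.18 for *Kmt2e*, 0.11 for *Kat6b*, 0.11 for *Ep300*, 0.017 for *Ezh1*, 0.059 for *Kdm2a*, 0.062 for *Kdm5b*, 0.031 for *Pbrm1* and 0.036 for *Hdac3*. After median centring it was 0.0093 for *Kmt2e* and 0.029 for *Hdac3*, after quantile normalization 0.016 for *Kmt2e*, −0.027 for *Ezh2* and −0.0035 for *Kdm3a*, and with library weights −0.00019 for *Kdm3a*. With a library left out the values ran from −0.11 to 0.070 for *Kmt2e*, from −0.054 to 0.075 for *Kdm3a*, from −0.018 to 0.045 for *Kdm5a* and from −0.057 to 0.049 for *Hdac3*. The members with the fewest reads in a library were *Setd1b*, *Kdm6b* and *Setd1a*, with as few as 43, 73 and 74.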
